A study of Mus musculus with 2 samples.

Results

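Gelsolin, encoded by Gsn, was described at the level of its isoforms in mouse muscle stem cells (MuSCs). Gsn (ENSMUSG00000026879) is 1 of the 27321 genes in the short-read tables of the 2 libraries together, and 12 of the 68065 isoforms counted with long reads belong to it. All 12 were included. The gene was chosen on its measured values, namely the difference in isoform use and in level between barcodes with few UMIs and barcodes with many. A UMI (unique molecular identifier) is a short tag added at capture, by which transcripts are counted. The low-UMI class comprised barcodes with 3000 to 15000 short-read UMIs and 0 UMIs of the cell-cycle genes Rrm2, Top2a and Cdk1, and the deep class comprised barcodes with at least 20000 short-read UMIs. In the 10% library 157 of 1991 barcodes fell into the low-UMI class and 79 into the deep class. The differences between these classes are therefore given as a description, with intervals for counting error and without a test.

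The cells came from Pax7creERT2 R26-eYFPfl/fl mice on a C57BL6 background, in which tamoxifen given daily at 3 months of age for 5 days (100 μL of 20 mg/ml) switches on YFP in cells that express Pax7 and in their descendants. Cells gated on YFP were taken from uninjured hindlimb muscle, which gives quiescent MuSCs, and from muscle injected with 40 μL of 1.2% barium chloride, which gives activated MuSCs at 72 h after injury. Both kinds went into a single 10x Genomics 3′ capture, so there are no replicates, all groups share the Cre driver and the tamoxifen, and no label in the tables used here gives the muscle from which a cell came. The 10% library was sequenced with Illumina short reads and nanopore long reads, and the 90% library with short reads alone.

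The classes were compared with marker genes, which did not all point the same way. Of 10 genes listed as markers of quiescent MuSCs, 6 were at least 2-fold higher in the low-UMI class in each library after adding 10 CPM (UMIs of the gene per 1000000 UMIs of the class) to both levels, namely Calcr, Chrdl2, Heyl, Notch3, Spry1 and Sdc4, and 0 were lower. Of all genes, 8.39% in the 10% library and 6.06% in the 90% library were higher by this rule. Myod1, a transcription factor that rises when MuSCs activate, was also higher in the low-UMI class, at 1106 against 185 CPM in the 10% library and 1069 against 213 CPM in the 90% library. Myog, which marks differentiating myoblasts, was at 1.79 against 33.1 CPM in the 10% library and 36.7 against 74.6 CPM in the 90% library. Of the 7 genes listed for activated or cycling cells, Myod1 was the 1 that was higher, and 6 were lower in the 10% library and 5 in the 90% library, beside 13.4% and 9.22% of all genes. Rrm2, Top2a and Cdk1 among them are at 0 through the definition of the low-UMI class. The proliferation marker Mki67 was at 0.897 against 30.8 CPM and the cyclin Ccnb1 at 0.897 against 46.3 CPM in the 10% library, and at 2.01 against 24.6 and 0.930 against 49.8 CPM in the 90% library. The classes are therefore named by their UMI counts only.

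The libraries were not independent. All 269 barcodes with at least 3000 UMIs in the 10% table were also listed in the 90% table, where they held a median of 0.814 UMIs for each UMI in the 10% table. For each of the 79 deep barcodes the most correlated profile among those 79 barcodes in the 90% table was that of the same barcode. Of the 2039 barcodes with at least 3000 UMIs in the 90% table, 492 were listed in the 10% table. The 2 lists shared 634 barcodes in all, and the 90% values of Gsn by class, depth and Myod1 are therefore given with and without them, as are the counts of actin regulators and the levels of the fibro-adipogenic and immune marker lists. The other values of the 90% library include them. The median depth was 6729 short-read UMIs per barcode in the low-UMI class and 65499 in the deep class of the 10% library, and 4680 and 47106 in the 90% library. The long-read medians were 8401 and 55293 UMIs.

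Gelsolin binds, severs and caps actin filaments in a calcium-dependent way, and so takes part in remodelling of the actin cytoskeleton. A single gene gives a cytoplasmic form and a secreted form, known as plasma gelsolin, which differ at the N terminus through the use of alternative transcription starts, and the secreted form carries a signal peptide. Skeletal muscle is known as a source of plasma gelsolin.

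Gsn lies on the forward strand of chromosome 2 at 35256380 to 35307892 (GRCm38), a span of 51513 bases. Gencode vM21 gives it 7 transcripts and places 1 further gene, Gm43128, so that it overlaps the span. The transcript with the distal start, ENSMUST00000201185.3, begins at 35256380, has 18 exons and codes for 731 codons from an ATG at 35283914, which is the cytoplasmic reading frame. The transcript with the proximal start, ENSMUST00000028239.7, begins 26000 bases further downstream at 35282380, has 17 exons and codes for 780 codons from an ATG at 35282464 in its first exon. The 2 transcripts share 15 identical exons, and the proximal one codes for 49 additional codons ahead of the ATG that both share.

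The coding sequence ahead of the shared ATG is shown because it is what distinguishes the product of the proximal transcript from the cytoplasmic form (Gencode vM21, GRCm38, forward strand). It is spliced, 5′ to 3′, with the first ATG and the shared ATG in capitals. The cytoplasmic form begins at the last capital ATG.
ENSMUST00000028239.7, proximal start: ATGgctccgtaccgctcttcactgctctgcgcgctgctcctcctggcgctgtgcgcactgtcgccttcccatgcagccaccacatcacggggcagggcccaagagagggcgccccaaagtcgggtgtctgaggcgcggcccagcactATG

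The 250 bases ahead of each start are shown because the isoforms of the 2 starts had different levels in the classes. They are from RefSeq (GRCm38.p6, forward strand), in which the distal start lies 21 bases ahead of the Gencode one. Capitals mark matches on either strand to CAGCTG, an E-box of the kind that MyoD binds, to GGGCGG, the GC box, and to CCAAT.
Distal start, chr2:35256109-35256358: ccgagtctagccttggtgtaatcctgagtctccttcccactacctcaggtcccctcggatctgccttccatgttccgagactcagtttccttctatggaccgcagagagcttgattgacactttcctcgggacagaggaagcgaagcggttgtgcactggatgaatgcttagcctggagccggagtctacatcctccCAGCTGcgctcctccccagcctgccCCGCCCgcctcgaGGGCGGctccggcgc
Proximal start, chr2:35282130-35282379: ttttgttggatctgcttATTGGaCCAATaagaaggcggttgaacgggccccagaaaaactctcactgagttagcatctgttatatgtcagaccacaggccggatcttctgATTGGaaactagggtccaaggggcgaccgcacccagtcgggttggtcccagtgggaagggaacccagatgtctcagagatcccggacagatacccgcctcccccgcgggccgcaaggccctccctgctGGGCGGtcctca
In the window from 250 bases before to 50 bases after the start, the distal promoter held 1 CAGCTG, at -53, 3 GGGCGG and 0 CCAAT. The proximal promoter held 0 CAGCTG, 2 GGGCGG and 3 CCAAT. The general E-box CANNTG, which includes CAGCTG, was found at 1 position in the distal and at 2 in the proximal promoter. RefSeq gives a further Gsn start at 35266744, between these, whose window held 3 CANNTG, 1 of them a CAGCTG, 1 GGGCGG and 1 CCAAT. Neither the distal nor the proximal promoter held TATAAA, the AP-1 motif TGANTCA or a CArG box. Over 32851 promoters of the same length, 72.3% held CANNTG, 16.3% CAGCTG, 35.7% GGGCGG and 37.4% CCAAT, so none of these matches is rare. A match gives letters in a window and says nothing about binding.

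The deposited annotation holds 9 Gsn isoforms, drawn to scale in the plot of exon structures. The proximal ENSMUST00000028239.7 had 1765 supporting reads and the distal ENSMUST00000201185.3 had 544. Of the 7 isoforms without a reference name, 3 began at the distal start at 35256409. The one with 292 supporting reads lacks the second exon of ENSMUST00000201185.3 (35266820 to 35266903), the one with 71 has an exon that begins at 35283883, ahead of the usual 35283905, and the one with 44 includes an additional exon. A further 2 began at or near the proximal start, with 203 and 15 reads, and 2 began further downstream with 25 and 23 reads. The one with 203 began at 35282513, past the ATG of ENSMUST00000028239.7 at 35282464. From the shared coding exons to the 3′ end, the isoforms that began at either start ran in parallel.

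**Figure D1:**
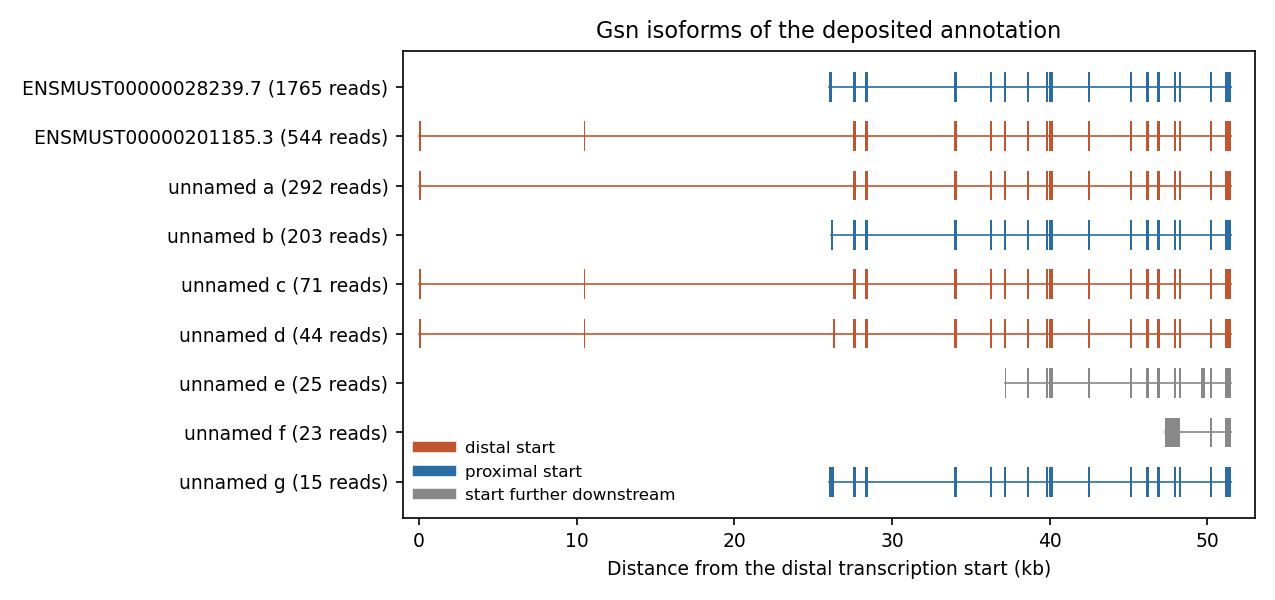
Exons (blocks) and introns (lines) of the 9 Gsn isoforms in the deposited annotation, by distance in kb from the distal transcription start, with the number of supporting long reads of each. Isoforms of the distal start (orange) and of the proximal start (blue) differ at the 5′ end, and the most supported isoform, with 1765 reads, has the proximal start.

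Of the 12 counted isoforms, 9 begin at or near the distal start and 3 at or near the proximal start. Together they held 2190 long-read UMIs over all barcodes, of which 1770 fell on the 2 isoforms with a reference name. The 10 isoforms without one held 6 to 69 UMIs each, 420 UMIs or 19.2% in all.

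The proximal isoform was the predominant form in the low-UMI class and the minor form in the deep class. ENSMUST00000028239.7, which codes for the longer, secreted form, took 700 of 878 Gsn long-read UMIs in the low-UMI class, a share of 79.7% (95% exact interval 76.9 to 82.3%). In the deep class it took 160 of 512, a share of 31.3% (27.3 to 35.5%). The difference was 48.5 percentage points, with a counting interval of 43.5 to 53.1 points. The cytoplasmic ENSMUST00000201185.3 had the opposite pattern, with 66 UMIs or 7.52% (5.86 to 9.46%) in the low-UMI class and 206 UMIs or 40.2% (36.0 to 44.6%) in the deep class, a difference of -32.7 points (-37.3 to -28.1). Neither pair of intervals overlapped. All intervals cover counting error only, not variation between animals or cells, and whether each long-read UMI stands for a separate molecule was not tested.

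The unnamed isoforms were a larger part of Gsn in the deep class, at 146 UMIs or 28.5%, than in the low-UMI class, at 112 UMIs or 12.8%. A single one of them reached 5% of a class. It is isoform 2 of those spanning 35256409 to 35307892, with 36 UMIs or 7.03% (4.97 to 9.60%) in the deep class and 17 UMIs or 1.94% (1.13 to 3.08%) in the low-UMI class. The isoform of that name in the annotation lacks the second exon of ENSMUST00000201185.3, but the isoform table numbers 7 isoforms over this span and the annotation 3, so that equal numbers may not stand for equal structures. Isoforms 1 and 3 over this span, the names of the forms with the shifted exon and the additional exon, had 18 and 17 UMIs in the low-UMI class and 13 and 12 in the deep class. The 2 unnamed isoforms of the proximal start had 23 and 19 UMIs in the low-UMI class and 14 and 20 in the deep class.

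Grouped by start, the 3 proximal isoforms took 742 UMIs or 84.5% (81.9 to 86.8%) in the low-UMI class and 194 UMIs or 37.9% (33.7 to 42.3%) in the deep class. The difference of 46.6 points (41.6 to 51.3) is close to that of ENSMUST00000028239.7 alone, as the plot of isoform shares shows. The proximal share is not a share of the secreted form. One of the 3 isoforms, with 19 and 20 UMIs, begins at 35282566, past the ATG at 35282464. The distal share is likewise not a share of the full-length cytoplasmic form. A distal isoform with 3 UMIs in the low-UMI class and 15 in the deep class ends at 35288187, ahead of the end of the gene at 35307892.

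**Figure D2:**
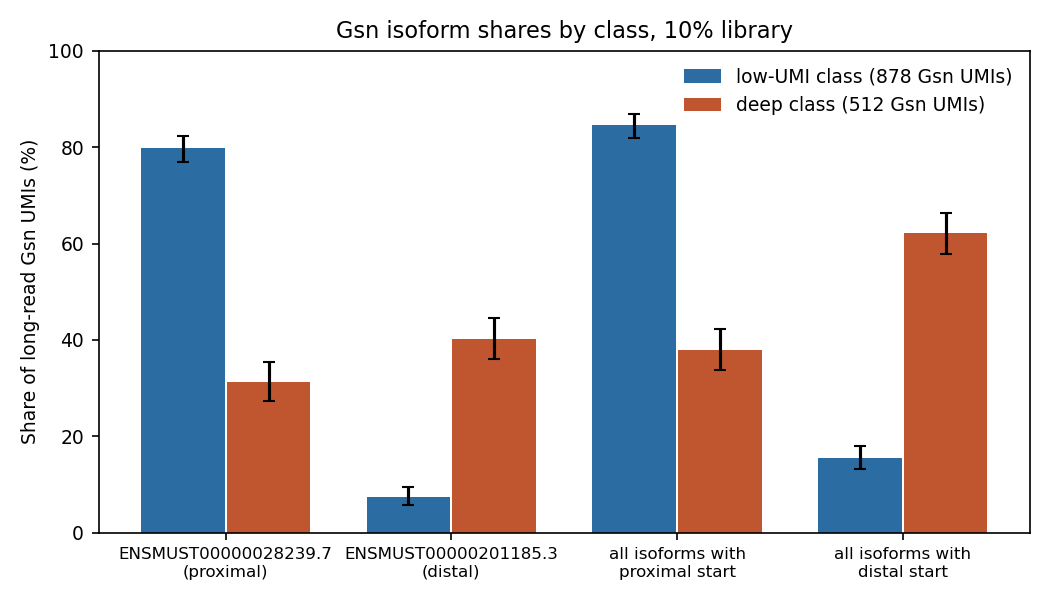
Share of long-read Gsn UMIs (%) of the 2 named isoforms and of all isoforms by start, in the low-UMI class (blue, 878 UMIs) and the deep class (orange, 512 UMIs) of the 10% library; error bars are 95% exact intervals. The proximal start holds 84.5% in the low-UMI class and 37.9% in the deep class.

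A change in share can come from either start, so the level of each was computed in CPM of the long-read UMIs of its class. Proximal isoforms were at 537 CPM (499 to 577) in the low-UMI class and at 41.9 CPM (36.2 to 48.2) in the deep class, a ratio of 12.8 (10.9 to 15.1). Distal isoforms were at 98.4 CPM (82.5 to 116) and 68.7 CPM (61.4 to 76.7), a ratio of 1.43 (1.16 to 1.76). The interval of the ratio of ENSMUST00000201185.3 alone included 1, with 47.7 CPM against 44.5 CPM and a ratio of 1.07 (0.800 to 1.42), whereas that of ENSMUST00000028239.7 was 14.6 (12.3 to 17.5). On this scale most of the shift therefore lay in the proximal isoforms.

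Per barcode the picture was different, because deep barcodes hold more UMIs of all genes. A low-UMI barcode held a mean of 4.73 proximal and 0.866 distal Gsn UMIs, and a deep barcode 2.46 proximal and 4.03 distal ones. Distal UMIs were thus more numerous per deep barcode, while in CPM they were 1.43-fold higher in the low-UMI class. In total a low-UMI barcode held 5.59 and a deep barcode 6.48 Gsn long-read UMIs. RNA content and capture per barcode cannot be told apart in these counts.

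Single barcodes showed the same pattern with overlap between the classes. Long-read Gsn UMIs had a median of 3 and a maximum of 30 in the low-UMI class and a median of 2 and a maximum of 57 in the deep class, and 106 of 157 and 60 of 79 barcodes held at least 1. Among barcodes with at least 5 Gsn UMIs, the proximal share had a median of 93.3% over 66 low-UMI barcodes (quartiles 80.0 and 100%) and of 26.2% over 30 deep barcodes (quartiles 15.3 and 62.6%). The share was over 50% in 59 of the 66 and in 11 of the 30. It was 100% in 29 low-UMI barcodes and in 0 deep barcodes, and 0% in 3 and 5. In the deep class 25 of the 30 barcodes held UMIs of both starts, against 34 of the 66 in the low-UMI class, although a barcode with few UMIs more often lacks a rarer form by sampling alone.

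**Figure D3:**
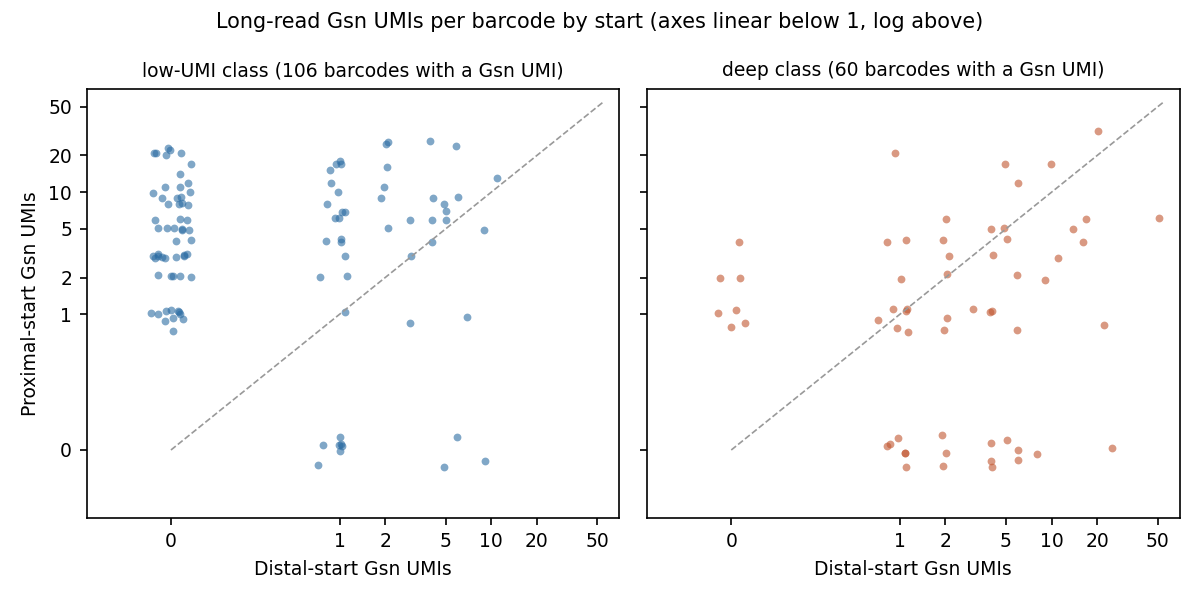
Proximal-start against distal-start long-read Gsn UMIs in each barcode with at least 1 Gsn UMI, for the low-UMI class (left, 106 barcodes) and the deep class (right, 60 barcodes); points are shifted slightly at random so that they do not hide each other, and the dashed line marks equal numbers. Most low-UMI barcodes lie above the line and deep barcodes lie on both sides of it.

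A few deep barcodes carried much of the Gsn signal. The 10 with the most Gsn UMIs held 56.6% of the Gsn UMIs of the deep class, against 28.1% for the 10 leading barcodes of the low-UMI class. The leading deep barcode held 57 Gsn UMIs, 6 proximal and 51 distal, beside 53 UMIs of Myod1. The next held 52, of which 32 were proximal, and 0 UMIs of Myod1. The shares of these leading barcodes were 10.5% and 61.5% proximal. A barcode with 126684 short-read UMIs held 25 Gsn UMIs, all of them distal, whereas one with 34448 held 22, of which 21 were proximal. Without the 2 leading deep barcodes the difference in the share of ENSMUST00000028239.7 was 47.5 points (42.0 to 52.5). Without the single leading barcode of each class it was 44.9 points (39.6 to 49.8), with 34.9% in the deep class.

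The short-read tables, which count genes without isoforms, gave the overall level of Gsn. In the 10% library Gsn was at 258 CPM (229 to 290, 288 UMIs) in the low-UMI class and at 33.5 CPM (28.7 to 39.0, 171 UMIs) in the deep class, a ratio of 7.71 (6.36 to 9.37). In the 90% library it was at 325 CPM (311 to 339, 2097 UMIs) over 1243 low-UMI barcodes and at 31.0 CPM (29.0 to 33.0, 925 UMIs) over 606 deep barcodes, a ratio of 10.5 (9.71 to 11.4). Without the barcodes that the 10% library also lists, 1000 low-UMI barcodes were at 334 CPM (319 to 351) and 399 deep barcodes at 28.8 CPM (26.4 to 31.4), a ratio of 11.6 (10.5 to 12.8). The ratio of the 10% library fell to 3.21 (2.57 to 4.04) when deep barcodes over 60000 UMIs were left out, and that of the 90% library to 9.45 (8.68 to 10.3).

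Long reads gave a smaller ratio for the same barcodes of the 10% library, 635 CPM (594 to 679) against 111 CPM (101 to 121) or 5.74 (5.14 to 6.41). Gsn had 3.05 long-read UMIs for each short-read UMI in the low-UMI class and 2.99 in the deep class, whereas over all genes these numbers were 1.24 and 0.908. Levels from the 2 kinds of reads are therefore compared only within each kind.

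In UMIs per barcode the short-read values differed far less than in CPM, with means of 1.83 and 2.16 in the low-UMI and deep classes of the 10% library and 1.69 and 1.53 in the 90% library. Without the shared barcodes the means of the 90% library were 1.68 and 1.34. The median was 1 in each class, and the highest barcode held 12 and 16 UMIs in the 10% library and 75 and 20 in the 90% library. The share of barcodes with a Gsn UMI was 59.2% (51.1 to 67.0%) and 62.0% (50.4 to 72.7%) in the 10% library and 56.8% (54.0 to 59.6%) and 50.3% (46.3 to 54.4%) in the 90% library, where it was 56.0% (52.9 to 59.1%) and 46.9% (41.9 to 51.9%) without the shared barcodes. When each barcode was thinned to 3000 UMIs, which left out 0 barcodes, the shares were 42.0% (34.2 to 50.2%) against 11.4% (5.34 to 20.5%) in the 10% library, and 46.4% (43.6 to 49.2%) against 9.24% (7.06 to 11.8%) in the 90% library, or 48.5% (45.4 to 51.6%) against 8.52% (5.97 to 11.7%) without the shared barcodes. Among barcodes with under 1000 UMIs, which bear on free RNA, 0.722% of 1661 in the 10% library and 2.75% of 581 in the 90% library held a Gsn UMI, at median depths of 16 and 339 UMIs, far below the depth of the classes. In CPM these barcodes were at 167 (91.1 to 279) in the 10% library and 79.8 (48.0 to 125) in the 90% library, above the deep class of each, and at 66.4 (35.4 to 114) in the 90% library without the shared barcodes. Some of the 1661 barcodes of the 10% library had at least 3000 UMIs in the 90% table. Its value is therefore not one of free RNA alone, and it was not computed without the shared barcodes.

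Barcodes outside the 2 classes were examined because the limits of the classes are arbitrary. In the 10% library, 61 barcodes with 1000 to under 3000 UMIs had Gsn at 192 CPM (119 to 293) in short reads, and 70.6% (58.3 to 81.0%) of 68 long-read Gsn UMIs were proximal. The 21 barcodes of 3000 to 15000 UMIs that held a UMI of Rrm2, Top2a or Cdk1 had Gsn at 166 CPM (109 to 243), and 81.7% (72.4 to 89.0%) of 93 UMIs were proximal. The 12 barcodes over 15000 and under 20000 UMIs had Gsn at 293 CPM (224 to 376) and 89.0% (83.4 to 93.3%) of 173 UMIs were proximal, but a single barcode held 95 of these, and without it the level was 148 CPM and the proximal share 80.8%. With all barcodes counted, the proximal share thus exceeded 70% in each of these groups and was below 40% in the deep class alone. Without its leading barcode the group of 1000 to under 3000 UMIs was at 64.2% on 53 UMIs, and the deep class at 41.3%. In the 90% library the same groups were at 165 CPM (137 to 196), 169 CPM (144 to 196) and 155 CPM (127 to 187), all between its deep and low-UMI classes. Without the shared barcodes they were at 170 CPM (140 to 205), 141 CPM (116 to 170) and 118 CPM (90.9 to 150).

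**Figure D4:**
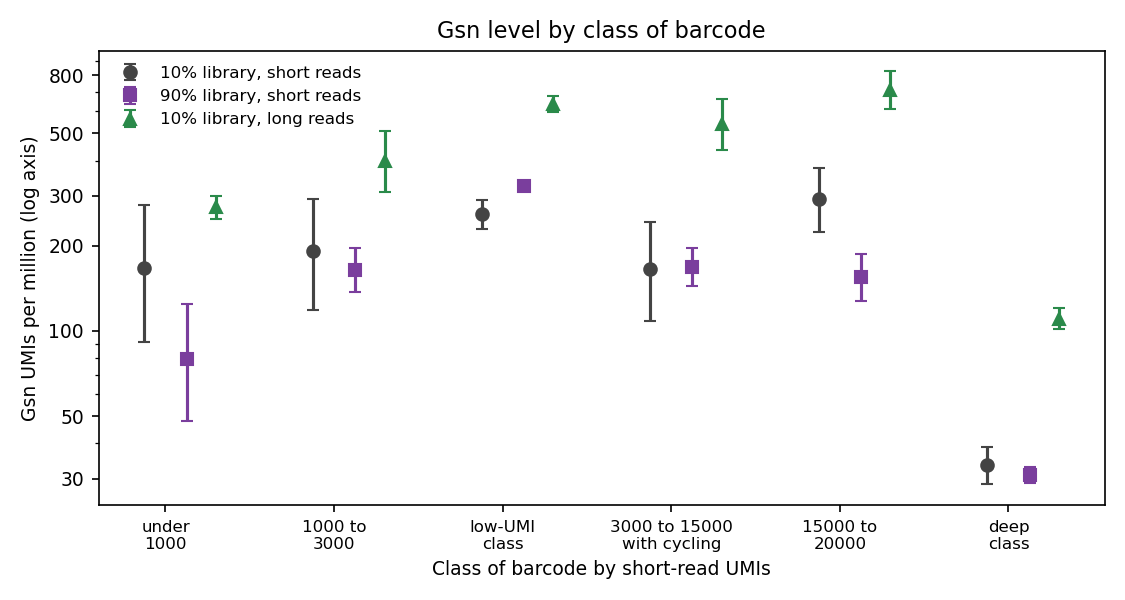
Gsn level in CPM (log axis) in 6 classes of barcodes, for short reads of the 10% library (circles) and the 90% library (squares) and long reads of the 10% library (triangles); error bars are 95% exact Poisson intervals. The deep class is the lowest in each series, at 33.5, 31.0 and 111 CPM.

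Within the deep class of the 10% library the level and the proximal share were highest in the shallowest barcodes. Gsn was at 101 CPM (75.8 to 131) in the 19 barcodes of 20000 to under 40000 UMIs, 66.7 CPM (50.1 to 87.1) in the 16 of 40000 to under 60000, 12.9 CPM (7.88 to 19.9) in the 22 of 60000 to under 80000 and 19.1 CPM (13.8 to 25.9) in the 22 of 80000 or more. The proximal share was 56.3% (48.4 to 63.9%), 33.5% (26.2 to 41.6%), 33.8% (22.6 to 46.6%) and 20.8% (14.1 to 29.0%) in the same bins, of which the middle ones did not differ beyond their intervals. The bins of the 90% library were at 49.0, 29.3, 24.2 and 19.9 CPM, and at 35.6, 27.9, 25.1 and 21.1 CPM without the shared barcodes. In the low-UMI class of the 10% library no such order was seen from the shallowest bin, which began at 3000 UMIs, to the deepest, which ended at 15000. The proximal shares were 75.6% (64.6 to 84.7%), 93.1% (89.6 to 95.7%), 80.3% (75.4 to 84.7%) and 81.2% (75.1 to 86.4%). The levels were 156 CPM (100 to 232), 301 CPM (243 to 368), 264 CPM (216 to 320) and 259 CPM (200 to 330), lowest in the shallowest bin. The 90% library had 324, 325, 360 and 262 CPM in these bins, and 331, 344, 369 and 243 CPM without the shared barcodes.

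Both classes were split by the presence of a UMI of Myod1, and the deep class also by Myog. In the deep class of the 10% library, the 67 barcodes with a Myod1 UMI had Gsn at 23.7 CPM (19.5 to 28.6) and a proximal share of 29.7% (24.8 to 34.9%), and the 12 without one had 123 CPM (94.3 to 158) and 53.7% (46.0 to 61.3%). The median depth of these groups was 67730 and 34004 UMIs, and its part in the difference was not tested. In the 90% library the levels were 28.6 CPM (26.6 to 30.7) and 54.5 CPM (46.1 to 64.1), but without the shared barcodes they were 28.1 CPM (25.6 to 30.8) and 36.8 CPM (27.9 to 47.6), with overlapping intervals. In the low-UMI class the proximal share was 82.2% (78.1 to 85.8%) in the 83 barcodes with Myod1 and 86.4% (83.0 to 89.4%) in the 74 without, with overlapping intervals. The level there was 231 CPM (194 to 273) with Myod1 and 290 CPM (246 to 340) without. In the low-UMI class of the 90% library it was 291 CPM (273 to 311) with Myod1 and 357 CPM (337 to 379) without, and 293 CPM (271 to 315) and 373 CPM (350 to 397) without the shared barcodes, in neither case with overlap. The 12 deep barcodes with a Myog UMI had a proximal share of 54.0% (39.3 to 68.2%) on 50 Gsn UMIs, and the 67 without one 36.1% (31.8 to 40.7%), again with overlapping intervals. Their levels were 20.4 and 35.9 CPM in the 10% library, and 29.6 and 31.4 CPM in the 90% library.

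Gsn is also expressed by other cells of muscle, and their markers were followed in the same barcodes. Of 9 fibro-adipogenic and tenocyte markers, Pdgfra, Lum, Pi16, Tnmd and Fmod were at 0 in the low-UMI class of the 10% library, and the summed level of the list was 151 CPM there and 49.0 CPM in the deep class. Pi16, Tnmd and Fmod were at 0 in the deep class of each library as well. Pdgfra and Lum had 2 and 1 UMIs in the deep class of the 10% library. Col3a1, which encodes a collagen, made up 148 of the 151 CPM. Barcodes with at least 2 UMIs of the whole list held 42.7% of the Gsn UMIs and 29.8% of all UMIs of the low-UMI class, at 370 CPM of Gsn against 211 CPM in the rest. In the deep class they held 74.9% of the Gsn UMIs and 49.3% of all UMIs, at 50.9 against 16.6 CPM. Without Col3a1, 0 low-UMI barcodes and 17 deep barcodes held at least 2 UMIs of this list. The 17 held 22.8% of the Gsn UMIs and 24.0% of all UMIs of the deep class, at 31.9 against 34.1 CPM. Of their 125 long-read Gsn UMIs 28.8% were proximal, against 40.8% in the rest of the class. In the 90% library 12 low-UMI barcodes held at least 2, with 3.96% of the Gsn UMIs of that class at 1228 CPM, against 315 CPM in the rest. The 165 deep barcodes with at least 2 there held 24.5% of the Gsn UMIs and 29.9% of all UMIs of the deep class, at 25.4 against 33.3 CPM. In the 90% library the whole list was at 251 against 49.8 CPM, or 267 against 47.3 CPM without the shared barcodes. Pdgfra, Pi16, Tnmd and Fmod were at 0 in the low-UMI class there. Dcn, which encodes decorin, was at 24.3 against 1.61 CPM there, but at 0.897 against 4.51 CPM in the 10% library. By the 2-fold rule 1 gene of the list was higher in the 10% library and 2 in the 90% library. Of all genes 8.39% and 6.06% were. In each library 1 gene was lower, beside 13.4% and 9.22% of all genes. This was Scx, at 0.897 against 13.1 CPM in the 10% library and 4.18 against 21.3 CPM in the 90% library.

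The immune list was at 96.0 CPM in the low-UMI class of the 10% library, with Ptprc and Adgre1 at 0. At least 2 UMIs of it were found in 1 barcode, which held 104 UMIs of the list and 0 Gsn UMIs. In the deep class the list was at 62.6 CPM and in 4 barcodes, 1 of which held 302 UMIs of it. Most of each of these class levels thus came from 1 barcode. The 4 deep barcodes held 43 long-read Gsn UMIs, 16.3% of them proximal, against 39.9% in the rest of the class. In the 90% library the immune list was at 204 against 3.35 CPM, or 189 against 3.14 CPM without the shared barcodes, and 3 of its 6 genes were at least 2-fold higher in the low-UMI class, beside 6.06% of all genes. These included the lysozyme gene Lyz2, at 112 against 0.971 CPM, and Tyrobp, an adaptor of immune receptors, at 55.9 against 0.469 CPM. In the 10% library Lyz2 was at 8.97 against 27.3 CPM and Tyrobp at 58.3 against 25.5 CPM. Neither Ptprc nor Adgre1 was at 0 in the 90% library. The 16 low-UMI barcodes with at least 2 UMIs of the list held 0.811% of the Gsn UMIs of the class, at 154 CPM against 328 CPM in the rest. The endothelial and mural list was at 89.7 and 81.4 CPM and the myofibre list at 52.0 and 23.9 CPM in the 2 classes of the 10% library. Deep barcodes with at least 2 UMIs of the endothelial and mural list held 55.6% of the Gsn UMIs and 31.5% of all UMIs of the class, at 59.1 against 21.8 CPM. Without Acta2, 7 deep barcodes held at least 2, with 5.85% of the Gsn UMIs and 9.22% of all UMIs, at 21.3 against 34.8 CPM. In the 90% library 35 deep barcodes held at least 2 without Acta2, at 42.6 against 30.2 CPM. The endothelial and mural list and the myofibre list were at 94.7 and 51.0 CPM and at 68.3 and 39.4 CPM in the 90% library.

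Barcodes with at least 2 UMIs of the fibro-adipogenic and tenocyte, immune, or endothelial and mural lists were then left out. This kept 106 low-UMI and 30 deep barcodes of the 10% library, in which the ratio of Gsn levels was 12.5 (8.45 to 18.9) and the difference in the share of ENSMUST00000028239.7 was 53.4 points (43.8 to 61.3). With Col3a1 and Acta2 taken off the lists, a choice made after seeing that they lay in many barcodes, 155 and 54 barcodes remained, with a ratio of 8.16 (6.52 to 10.3) and a difference of 40.7 points (34.7 to 46.4). The ratio of the 90% library was 13.1 with the whole lists and 10.0 with the reduced ones.

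The shift of Gsn was set beside those of all genes with at least 50 long-read UMIs in each class. Of 3265 such genes, 564 or 17.3% had an isoform whose share differed by at least 20 points, and the median over all genes was 10.6 points. Gsn, at 48.5 points, was the gene with rank 16. It was chosen for this value, so its rank is a description.

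Other regulators of actin were compared by the same classes, from a list of 55 genes. In the 10% library, 8.39% of 10076 genes were at least 2-fold higher in the low-UMI class after adding 10 CPM to both levels, and 13.4% were at least 2-fold lower. In the 90% library these shares were 6.06% and 9.22% of 14932 genes. Among the actin regulators with at least 20 UMIs, 1 of 48 was higher and 15 were lower in the 10% library, and 2 of 52 were higher and 15 lower in the 90% library. In both libraries 1 gene was higher and 13 were lower, and 0 passed in opposite directions. The share of all genes that passed in both libraries was not computed, so these counts stand without a background. Since the libraries share barcodes, their overlap is not independent, and without the barcodes of the 10% list these counts were again 1 and 13.

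Within its own superfamily Gsn was the gene that passed. Capg, a relative that caps filaments and does not sever them, was at 43.1 against 89.6 CPM in the 10% library and 72.5 against 96.2 CPM in the 90% library. Flii was at 11.7 against 15.7 CPM and the membrane-associated Svil at 4.49 against 10.2 CPM in the 10% library, neither past 2-fold after adding 10 CPM. Avil was at 5.38 and 1.96 CPM with under 20 UMIs in the 10% library and at 1.71 and 1.44 CPM in the 90% library. Vil1, the villin of epithelial brush borders, had 0 UMIs in both classes of the 10% library and 0.620 and 0.536 CPM in the 90% library. Vill and Scin had under 20 UMIs in each library.

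The genes that were lower in both libraries, of which 12 are named, came from most of the groups of the list. Of the severing and disassembly genes they were Cfl1, the filament-severing cofilin, at 395 against 1103 CPM in the 10% library, its cofactor Wdr1 at 16.2 against 73.3 CPM, and the coronin Coro1c at 13.5 against 42.9 CPM. Of the capping genes Eps8 was at 2.69 against 16.5 CPM. Of the genes for monomer-binding proteins, profilin Pfn1 was at 10.8 against 66.7 CPM and thymosin Tmsb10 at 1377 against 7692 CPM. The cytoplasmic actins Actb and Actg1 were at 488 against 1370 CPM and 921 against 2032 CPM. Of the cross-linkers and membrane linkers, Actn1 was at 19.7 against 78.2 CPM, the filamin Flna at 15.3 against 49.4 CPM, the bundling protein Fscn1 at 54.7 against 202 CPM, and Ezr, which links filaments to the membrane, at 11.7 against 34.5 CPM. Arpc3, a subunit of the Arp2/3 nucleation complex, was the one gene besides Gsn that was higher in both, at 230 against 107 CPM, but it did not pass without the condition on cycling genes or with a deep class of 20000 to 60000 UMIs. Several of these genes, such as Actb, Actg1, Cfl1, Pfn1 and Tmsb10, have processed pseudogenes between which counting can split reads.

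**Figure D5:**
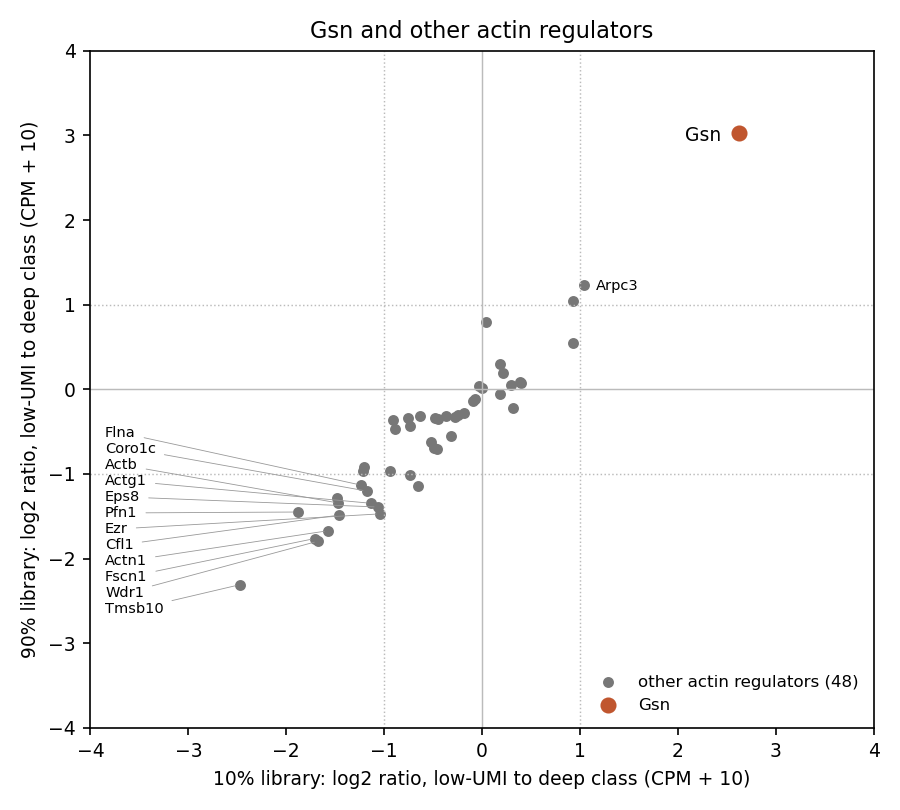
Log2 ratio of the low-UMI to the deep class, after adding 10 CPM, in the 10% library (x) and the 90% library (y) for Gsn (orange) and the 48 other actin regulators with at least 20 UMIs in both libraries (grey); dotted lines mark 2-fold. Gsn lies at 2.62 and 3.03, and each named grey gene passed 2-fold in both libraries.

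By isoform, 34 of the other regulators had at least 50 long-read UMIs in each class, and 1 of them, the membrane linker Msn, differed by at least 20 points, with an isoform at -27.9 points. This is 2.94% of the 34, beside 17.3% of all genes by the same rule. The median largest difference of the 34 regulators was 6.56 points, against 10.6 points over all genes and 48.5 points for Gsn.

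The genes with the profile most like that of Gsn were taken by Pearson correlation of log2(CPM + 10) over 10 sums, namely 5 UMI classes in each library, among 3171 genes with at least 200 UMIs in each library. They were Jak1, a kinase of cytokine signalling (r = 0.978), Nipbl, a cohesin loader (0.972), Msc, a transcription factor that represses myogenic factors (0.971), Col3a1 (0.968) and Gclm, a subunit of an enzyme of glutathione synthesis (0.963). The points share barcodes and depth, 47 genes had r over 0.9, and the median over all genes was -0.304, so these values are a description of the sums. Msc was at 750 against 20.0 CPM in the 10% library and 784 against 11.6 CPM in the 90% library, and Jak1 at 86.1 against 19.6 and 83.5 against 23.9 CPM. Nipbl was at 127 against 42.0 CPM, Col3a1 at 148 against 28.2 CPM and Gclm at 121 against 49.0 CPM in the 10% library.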

How the data were processed

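The authors deposited UMI counts per gene, made with scPipe from the short reads of each library, and UMI counts per isoform, made with FLAMES from the nanopore reads of the 10% library, all without normalization. The submitters' processing notes name Cell Ranger 1.3, minimap2 2.17 and GRCm38.p6. Isoform structures came from the deposited annotation and from Gencode vM21, which has the assembly of the vM24 that the authors used, and promoters from RefSeq. The tables hold 6772259 and 39044129 short-read UMIs and 8297203 long-read UMIs.

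Barcodes were classed by UMIs, and CPM were computed from UMIs summed over a class. Shares have exact (Clopper-Pearson) 95% intervals, levels exact Poisson intervals, ratios exact conditional intervals and differences of shares Newcombe intervals. With 1 capture no test was run. The functions were tested on simulated data. No doublet caller was run, and an upper UMI limit served as an alternative. No cell was clustered or named. Gsn with all isoforms, each in full from 5% of a class, the actin regulators at least 2-fold different in both libraries, the whole gelsolin superfamily and the 5 most similar genes were named, and the leading barcodes and Msn were added after their values were seen. Members and lists were chosen with earlier results of these data known. Python 3.11.15 and scipy 1.17.1 were used. Alternatives changed the UMI windows, the marker filter, the isoforms counted and the fold rule. The authors' cell clusters were not used here. An actin regulator that passed and a coding sequence are not reported here.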

Additional observations from a re-analysis of the deposited data

Results flagged for a closer look

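Barcodes that enter no comparison carried Gsn in long reads. The 1661 barcodes of the 10% library with under 1000 short-read UMIs held 466 long-read Gsn UMIs, in 301 barcodes, and 14 short-read ones, in 12 barcodes. Over all genes these barcodes had 1701000 long-read and 84049 short-read UMIs, or 20.2 long-read UMIs for each short-read UMI, against 1.24 in the low-UMI class. Of the 466 UMIs, 294 or 63.1% (95% exact interval 58.5 to 67.5%) were proximal, between the shares of the low-UMI and deep classes.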

How the results depend on the processing

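No alternative reversed the Gsn ratios or the differences in isoform share. The difference in the share of barcodes with a Gsn UMI in the 10% library, whose interval of -15.4 to 10.5 points included 0, changed sign on thinning. Of 68 alternative values, 39 stayed within the interval, or within 1.5 times the count, of the value reported, and 29 moved outside it. No paired analysis was possible because the comparisons are between barcodes of 1 capture and each library has 1 sample.

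The Gsn ratio of the 10% library, 7.71, was 10.1 with a deep class of at least 40000 UMIs, 3.21 with one of 20000 to 60000, 12.5 without barcodes with markers of other cells and 5.74 in long reads. That of the 90% library, 10.5, was 12.1, 9.45 and 13.1 under the first 3 of these and 11.6 without the barcodes of the 10% list. The difference in the share of ENSMUST00000028239.7, 48.5 points, was 57.1 and 40.6 with these deep classes, 53.4 without barcodes with markers of other cells, 40.7 with the filter lacking Col3a1 and Acta2, 37.4 with classes set by long-read UMIs, 58.1 for deep barcodes with Myod1 and 43.1 as a mean over barcodes. The difference in the share of barcodes with a Gsn UMI moved from -2.79 to 30.6 points in the 10% library and from 6.47 to 37.2 points in the 90% library when barcodes were thinned. The 1 actin regulator higher in both libraries became 0 without the condition on cycling genes and with a deep class of 20000 to 60000 UMIs, and 2 with a deep class of at least 40000 UMIs, without barcodes with markers of other cells, at 1.5-fold and with 1 CPM added. The number lower in both libraries was 9 to 18, against 13. The cause of these moves was not tested. The levels of deep barcodes with and without Myod1 in the 90% library overlapped without the 10% list. Alternatives without the 10% list, the 2 leading deep barcodes, Col3a1 and Acta2 or deep barcodes lacking Myod1 were chosen after seeing the data. The number of Gsn UMIs limits the deep class, where 512 long-read Gsn UMIs lie in 60 barcodes.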
